A study of Mus musculus with 7 samples.

Results

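The 10 genes described here, Pi16, Dpt, Clec3b, Gsn, Efemp1, Cd34, Sfrp4, Tnxb, Dpep1 and Cd248, are genes associated with fibroblasts of the resting adventitia, the connective tissue sheath around vessels and ducts. They were taken by name from the 2 deposited count tables, and all 10 were listed in both, among 24394 genes in the first table and 13236 in the second. Each was followed across all 7 libraries of the series, which hold 3′ end mRNA counts of cells sorted from female BALB/c mice. The first table holds 3 libraries. NMF is the Ter119- CD45- EpCAM- stroma of the mammary fat pad of untreated mice aged 8 weeks. The pCAF and sCAF libraries come from tumours taken 4 weeks after 100000 4T1-luc cells, a luciferase-carrying form of the mouse mammary carcinoma line 4T1, were injected into the fat pad. At that point the mice were 12 weeks old, and the Ter119- CD45- EpCAM- cells were split by podoplanin into PDPN+ (pCAF) and PDPN- (sCAF). The second table holds 4 libraries from tumours of 4T1-GFP cells with the same schedule, in which Ter119- CD45- cells were split into GFP- EpCAM-, GFP- EpCAM+, GFP+ EpCAM- and GFP+ EpCAM+ sorts. GFP marks the injected cells.

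Each group is 1 library, and the sources used here do not state how many mice stand behind it. There was therefore no replicate spread and no test between groups. Every interval below is an exact 95% interval that covers counting error only. Normal fat pad and tumour also differed in the age of the mice and in the digestion enzymes, collagenase II and IV for the fat pad and collagenase A for tumours, and NMF was not split by podoplanin, whereas pCAF is the PDPN+ and sCAF the PDPN- fraction. Tumour, age, digestion and this gate cannot be told apart in any comparison with NMF. Pdpn itself was at 54.4 CPM in NMF, 638 in pCAF and 0 in sCAF.

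Library totals ran from 436051 counts in pCAF to 2590144 in sCAF. The library labelled sCAF stood apart from a fibroblast profile. The summed level of 16 general fibroblast genes was 1228 CPM (counts scaled to 1e6 per library, within the table) in sCAF, against 52494 in NMF and 94780 in pCAF. That of 12 epithelial genes was 4694 CPM in sCAF, against 206 in NMF and 127 in pCAF. Levels of the 10 genes in sCAF are therefore given for the library so labelled. Leaving sCAF out of the scaling did not change how many of the 10 genes were called lower in pCAF than in NMF, which was 3 either way.

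Fibroblasts that surround vessels and ducts in many resting mouse organs share a programme marked by Pi16 and Dpt, and they are often described as a reserve population. The proteins of this programme are mostly secreted or surface molecules: matrix organisers such as dermatopontin and tenascin-X, modulators of Wnt and protease activity, and the sialomucin CD34. Fibroblasts of tumours are known instead for fibrillar collagen, periostin and inflammatory products. By the GENCODE M21 annotation of GRCm38, all 10 are protein coding and lie on the plus strand. Pi16 is at chr17:29317680-29330593, Dpt at chr1:164796644-164824266, Clec3b at chr9:123150946-123157432, Gsn at chr2:35256380-35307892 and Efemp1 at chr11:28853204-28926743. Cd34 is at chr1:194938819-194961279, Sfrp4 at chr13:19623104-19632994, Tnxb at chr17:34670535-34719815, Dpep1 at chr8:123186242-123201812 and Cd248 at chr19:5068078-5070682. Counts were made per gene and do not tell exons or isoforms apart.

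Promoter windows of 300 bases, from 250 bases before to 50 bases after an annotated RefSeq start, are shown for the 4 genes whose windows hold CAGCTG, a set that spans small and large changes in pCAF. By their ratios Pi16 and Dpt were less than 2-fold below NMF, and Gsn and Dpep1 fell furthest of the 10. The windows are from GRCm38.p6, plus strand, at chr17:29318632-29318931 for Pi16, chr1:164796413-164796712 for Dpt, chr2:35256109-35256408 and chr2:35266494-35266793 for start sites 1 and 2 of Gsn, and chr8:123185985-123186284 for Dpep1. Capitals mark this sequence, a palindromic E-box hexamer of the kind bound by basic helix-loop-helix factors.
Pi16: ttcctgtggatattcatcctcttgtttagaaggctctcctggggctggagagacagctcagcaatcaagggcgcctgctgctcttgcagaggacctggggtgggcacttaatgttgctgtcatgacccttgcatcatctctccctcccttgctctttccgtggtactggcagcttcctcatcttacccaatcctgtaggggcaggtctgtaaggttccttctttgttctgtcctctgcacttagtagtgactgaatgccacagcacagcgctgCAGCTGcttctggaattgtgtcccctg
Dpt: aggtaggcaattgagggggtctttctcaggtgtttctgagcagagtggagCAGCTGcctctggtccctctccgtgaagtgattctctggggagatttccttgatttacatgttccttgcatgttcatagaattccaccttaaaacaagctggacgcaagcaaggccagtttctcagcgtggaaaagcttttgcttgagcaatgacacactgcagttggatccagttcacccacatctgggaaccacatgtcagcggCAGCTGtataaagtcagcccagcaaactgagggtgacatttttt
Gsn start site 1: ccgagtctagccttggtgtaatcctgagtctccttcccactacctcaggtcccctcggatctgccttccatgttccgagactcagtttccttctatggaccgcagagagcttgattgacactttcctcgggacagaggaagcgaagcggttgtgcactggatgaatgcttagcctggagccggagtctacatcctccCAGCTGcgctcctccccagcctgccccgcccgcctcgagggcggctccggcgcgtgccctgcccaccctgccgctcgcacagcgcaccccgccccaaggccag
Gsn start site 2: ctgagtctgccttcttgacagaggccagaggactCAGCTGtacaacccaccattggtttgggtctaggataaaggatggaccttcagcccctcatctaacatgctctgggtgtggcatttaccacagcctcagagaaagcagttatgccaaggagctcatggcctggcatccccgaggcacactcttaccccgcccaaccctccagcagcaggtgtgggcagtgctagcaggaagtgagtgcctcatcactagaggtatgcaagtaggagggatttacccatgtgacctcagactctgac
Dpep1: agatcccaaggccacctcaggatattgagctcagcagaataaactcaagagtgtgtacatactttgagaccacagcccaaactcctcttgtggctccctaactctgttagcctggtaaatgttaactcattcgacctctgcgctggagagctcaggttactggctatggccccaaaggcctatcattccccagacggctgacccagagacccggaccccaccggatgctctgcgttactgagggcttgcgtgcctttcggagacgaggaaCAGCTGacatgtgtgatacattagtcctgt
The hexamer starts 23 bases past the start in Pi16 and 20 past it in Dpep1, and Dpt holds it both 200 bases before and 6 bases past the start. In Gsn it lies 53 bases before start site 1 and 216 bases before start site 2. RefSeq windows were matched for 7 of the 10 genes, with 9 windows in all; Clec3b, Sfrp4 and Cd248 were not matched. CAGCTG was present in the windows of 4 of these 7 genes, against 18.3% of 27025 genes, and in 5 of the 9 windows, against 16.3% of 32851 windows. It was not present in the windows of Cd34, Tnxb and Efemp1 or in that of Gsn start site 3. Of 6 other motifs searched on both strands, with no overlaps between motifs, TGACTCA was present in the window of Tnxb, GGAATG in that of Dpep1 and TATAAA in that of Dpt, against 5.95%, 16.6% and 15.7% of all genes. CCAAT was present in 2 of the 7 genes, GGGCGG in 2 and TGTTCT in 2, against 41.1%, 38.2% and 21.3% of all genes. The motifs were chosen with the sequences in view, and a match is a description of letters.

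All 10 genes were highest in NMF, intermediate in pCAF and lowest in sCAF, with no overlap between the 95% intervals of neighbouring libraries. This order held for 2.52% of the 10116 genes with at least 20 counts over the 3 libraries. Each member had at least 1094 counts in NMF alone, and a gene near the 20-count limit can hardly give 3 separate intervals. The share among genes of like depth was not taken. In pCAF the 10 genes together still made up 12948 CPM, against 41646 CPM in NMF. Much of that difference was Gsn: without it the sums were 11868 CPM in pCAF and 22990 CPM in NMF. A gene was called lower or higher where the whole interval of its ratio lay beyond 2-fold. By that rule 3 of the 10 were lower in pCAF than in NMF, Gsn, Dpep1 and Clec3b, and 0 were higher, while 7.91% of the 8129 genes compared were called lower and 7.58% higher. Beside these ratios, the summed level of 8 adipocyte genes was 2230.1 CPM in NMF, of which Fabp4 alone made up 1880, and 4.99 CPM in pCAF. Adipoq, Plin1, Cidec, Lep, Retn and Cfd were at 0 in pCAF, but Lep was at 0 and Plin1 at 1 count in NMF too. Of the 6 adipocyte genes compared, 5 were called lower, among them Fabp4, a fatty acid carrier, at 754-fold (135 to 29804) with 1 count in pCAF; the gene was picked after its values were seen. The part of these cells in the members' ratios was not tested. In a sorted sample, fewer cells of a type and less RNA per cell cannot be told apart.

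**Figure D1:**
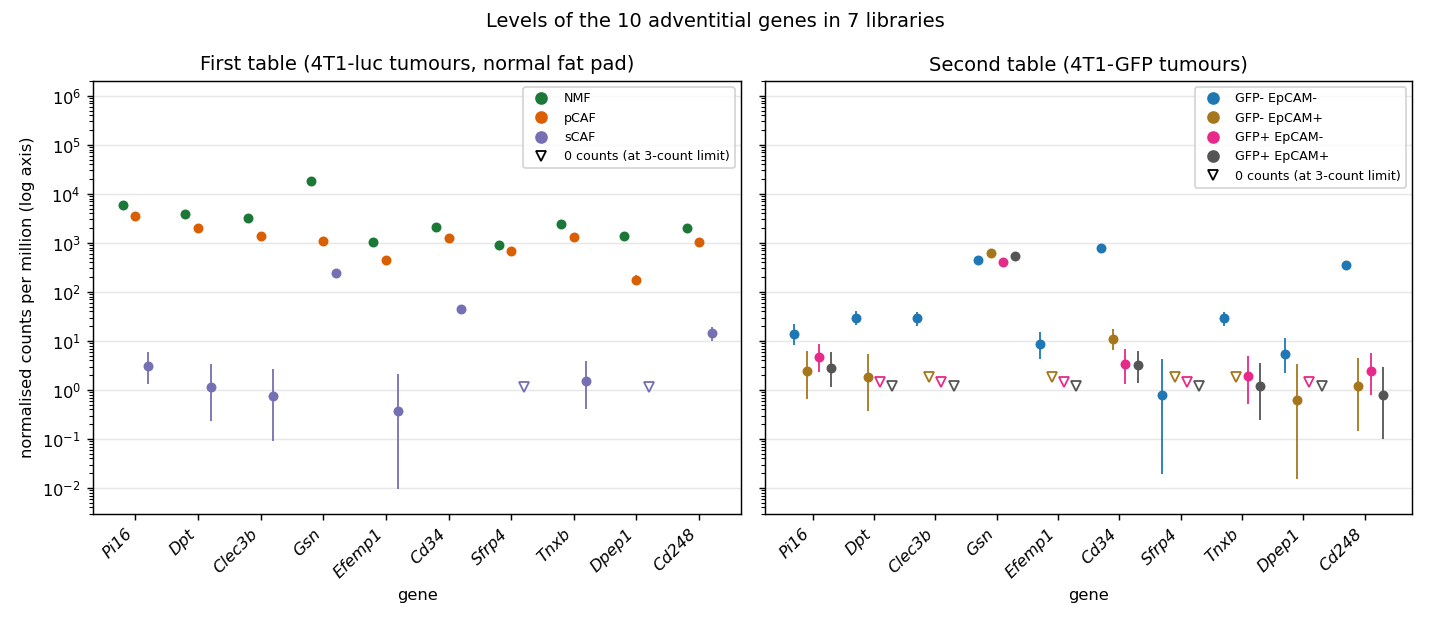
Level of each of the 10 genes (CPM, log axis) in the 3 libraries of the first table and the 4 of the second, with exact 95% Poisson intervals and open triangles at the 3-count limit where a gene has 0 counts. In the first table every gene runs NMF, pCAF, sCAF from top to bottom, and in the second Gsn is near the same level in every sort.

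Transcripts of the matrix protein genes Dpt, Tnxb and Efemp1 lay about 2-fold below their NMF level in pCAF. Dpt encodes dermatopontin, which binds decorin and takes part in collagen fibril formation. It had 4823 counts (3916 CPM) in NMF, 797 (1987 CPM) in pCAF and 3 (1.13 CPM) in sCAF. Its level in pCAF was 1.97-fold lower than in NMF (interval 1.83 to 2.13), which reached across the 2-fold line. Tnxb encodes tenascin-X, a matrix glycoprotein of loose connective tissue. It had 3054 counts (2479 CPM), 524 (1306 CPM) and 4 (1.51 CPM) in NMF, pCAF and sCAF, a 1.90-fold lower level in pCAF (1.73 to 2.09). Efemp1 encodes fibulin-3, an elastic-fibre-associated glycoprotein. Its counts were 1266, 179 and 1 (1028, 446 and 0.377 CPM), 2.30-fold lower in pCAF (1.97 to 2.71). The lower bound just missed 2-fold, so Efemp1 was not called.

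Clec3b encodes tetranectin, a secreted C-type lectin-like protein that binds plasminogen. Its counts in NMF, pCAF and sCAF were 3979, 555 and 2 (3230, 1384 and 0.754 CPM). It fell 2.33-fold in pCAF (2.14 to 2.56), the smallest change among the 3 genes called. Sfrp4, which encodes a secreted Wnt antagonist, stood nearest to its NMF level. It had 1094 counts (888 CPM) in NMF, 276 (688 CPM) in pCAF and 0 in sCAF. The pCAF level was 1.29-fold lower (1.13 to 1.48), and the intervals of NMF and pCAF did not overlap. Pi16 encodes peptidase inhibitor 16, a member of the CAP protein family whose expression defines the programme in many atlases. It had 7373 counts (5986 CPM) in NMF, 1444 (3599.7 CPM) in pCAF and 8 (3.01 CPM) in sCAF, which made it 1.66-fold lower in pCAF (1.57 to 1.76). With the scaling used here, the counting intervals of Sfrp4 and Pi16 therefore lay inside 2-fold.

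Among the surface proteins, the sialomucin Cd34, also present on endothelium and progenitor cells, had counts of 2541, 500 and 121 (2063, 1246 and 45.6 CPM) in NMF, pCAF and sCAF. The pCAF level was 1.66-fold lower than that of NMF (1.50 to 1.83). Cd248, which encodes endosialin, a C-type lectin-like receptor of fibroblasts and pericytes, had counts of 2473, 416 and 38 (2008, 1037 and 14.3 CPM). It was 1.94-fold lower in pCAF (1.74 to 2.15). Beside them, the endothelial list of 15 genes summed to 3760 CPM in NMF and 222 in pCAF, where Pecam1, Cdh5, Flt1, Emcn, Tie1, Esam and Cldn5 were at 0, and 15 of 15 were called lower. Their part in the Cd34 difference was not tested. The 10 pericyte genes summed to 635 CPM in NMF and 636 in pCAF, with Rgs5 and Higd1b at 0 in pCAF, but of 9 compared 1 was called higher and 2 lower. Ndufa4l2 rose 5.18-fold (3.58 to 7.57), while Notch3 fell 8.52-fold (3.83 to 23.6) and Rgs5 was at least 8.25-fold lower (exact limit 6.55). Dpep1, a membrane-bound dipeptidase that cleaves leukotriene D4, changed far more than the other surface genes. It had 1715 counts (1392 CPM) in NMF, 70 (174 CPM) in pCAF and 0 in sCAF, and fell 7.98-fold in pCAF (6.28 to 10.3).

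Gsn encodes gelsolin, an actin-severing and capping protein with a secreted plasma form. It alone held 44.8% of the members' counts in NMF and 8.34% in pCAF. Gsn had 22980 counts (18656 CPM) in NMF, 433 (1079 CPM) in pCAF and 654 (246 CPM) in sCAF. It fell 17.3-fold in pCAF (15.7 to 19.1). By ratio this put it 79th of 8129 genes from the lowest, and Dpep1 319th. In these ranks 273 genes with 0 counts in a library entered at a bound. The other 8 members ran from 1.29- to 2.33-fold lower. In log2 terms the 10 had a median of -0.97 where all genes had -0.20. With total counts as the scale, 6 of the 10 were called lower in place of 3, the split of all calls became 499 higher to 839 lower from 616 to 643, and the median of all genes moved to -0.41.

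**Figure D2:**
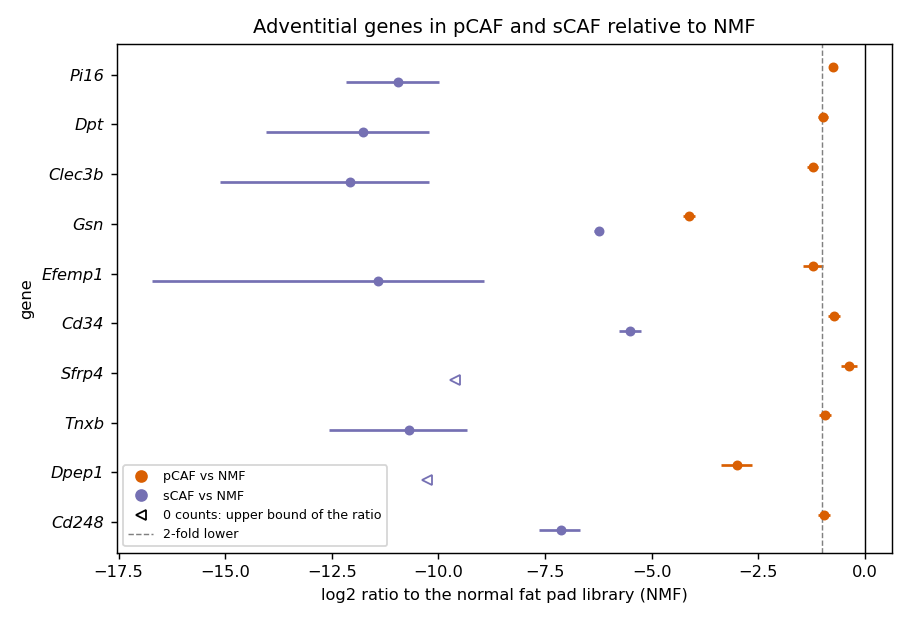
Log2 ratio of each member to NMF, in pCAF and in sCAF, with exact 95% counting intervals, open triangles for bounds where sCAF has 0 counts, and a dashed line at 2-fold lower. In pCAF against NMF, 8 of the 10 genes lie between 1.29- and 2.33-fold lower, and Dpep1 and Gsn lie at 7.98- and 17.3-fold lower.

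Set against fibrillar collagen of the same library, the 10 genes stood further below NMF in pCAF. Per 1000 counts of Col1a1, Col1a2 and Col3a1 together, Pi16 stood at 227 in NMF and 64.5 in pCAF, Dpt at 148 and 35.6, and Sfrp4 at 33.7 and 12.3. Gsn went from 707 to 19.3 and Dpep1 from 52.8 to 3.12. All 10 were below NMF with no overlap of intervals, from 2.73-fold for Sfrp4 to 36.6-fold for Gsn, with a median of 4.14-fold. The reference matters: collagen itself was higher in pCAF, with Col1a2 at 2.54-fold. Dcn was 2.31-fold lower in pCAF, and it held 11813 of the 13032 counts of Dcn, Lum and Pdgfra in NMF and 1665 of 2082 in pCAF. Against Dcn, Lum and Pdgfra, genes that fibroblasts express at rest, 3 of the 10 were below NMF (Clec3b, Gsn and Dpep1), 3 were above (Pi16, Cd34 and Sfrp4) and 4 overlapped. By that measure Gsn stayed 8.48-fold and Dpep1 3.91-fold lower, and Clec3b was 1.15-fold lower. Against the general fibroblast genes other than the 3 collagens, all 10 were below, with a median of 2.91-fold. This reference includes Dcn, Lum and Pdgfra, so it overlaps the one before. Dcn held 11813 of its 32176 counts in NMF, and Bgn 4033 and Fstl1 3421 of 15619 in pCAF. Gsn and Dpep1 were thus over 2-fold lower against all 3 references tried, and the direction for Pi16, Cd34 and Sfrp4 flipped with the reference.

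**Figure D3:**
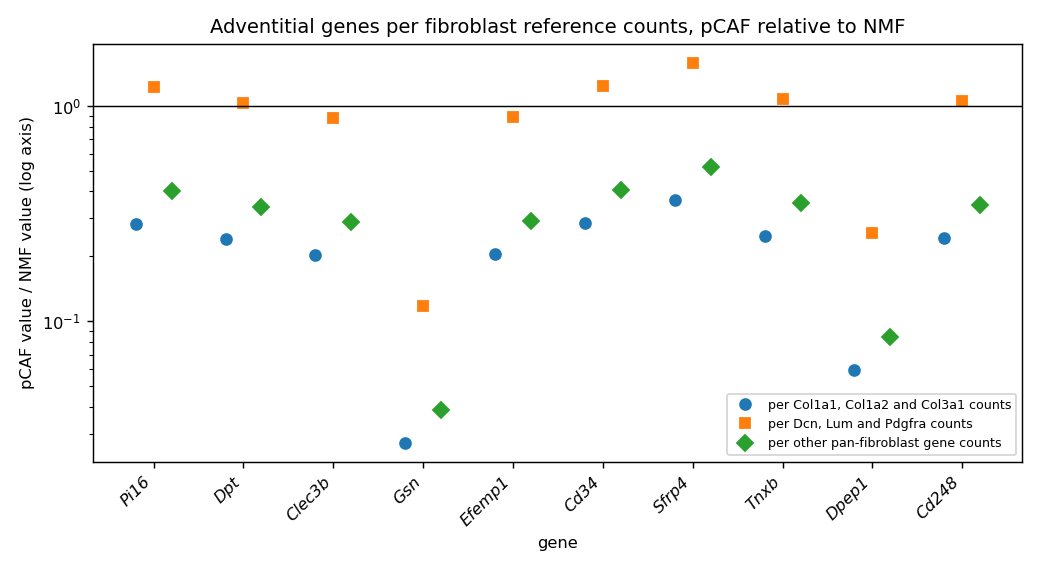
For each gene, its counts per fibroblast reference counts in pCAF divided by the same value in NMF (log axis, no intervals drawn), for 3 references. The other general fibroblast genes include Dcn, Lum and Pdgfra. Against the 3 collagens and against the other general fibroblast genes all 10 lie below 1, while against Dcn, Lum and Pdgfra Gsn and Dpep1 lie furthest below 1, Clec3b and Efemp1 lie slightly below and the other 6 lie above, Sfrp4 highest.

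In the library labelled sCAF all 10 genes were called lower than in NMF, where 17.3% of 9815 genes were called lower and 15.9% higher. The comparison shares its NMF library with the one above. Gsn was 75.7-fold lower (70.0 to 82.0), Cd34 was 45.2-fold lower (37.7 to 54.8) and Cd248 was 140.2-fold lower (102 to 199). Sfrp4 and Dpep1 were at 0, with a limit of 1.13 CPM for 3 counts, which makes them at least 786-fold and at least 1232-fold lower with the zero set to 3 counts. The exact 95% limits of the same ratios, which also carry the counting error of NMF, are 638-fold and 1001-fold. With zeros set to 3 counts, Clec3b and Dpt ranked lowest of all genes compared, whereas Cd34 was 401st from the lowest. These ranks depend on that rule: 430 genes entered at a bound, among them Igfbp6, with 0 counts in sCAF and 4082 in NMF. Against sCAF all 10 were called higher in pCAF, while 11.5% of 8915 genes were called higher and 11.2% lower. In both comparisons, the members other than Gsn, Cd34 and Cd248 had at most 8 counts in sCAF, below the 20-count limit. They entered through their counts in NMF or pCAF, so these calls could hardly go the other way and are a description only. Gsn was 4.38-fold (3.87 to 4.95), Cd34 27.3-fold (22.4 to 33.6) and Cd248 72.4-fold (51.9 to 104) higher in pCAF. Per 1000 collagen counts, 7 of the 10 were lower in sCAF than in NMF with no overlap, Gsn (1668 against 707) and Cd34 (309 against 78.2) were higher, and Cd248 (96.9 against 76.1) overlapped. Dcn, Lum and Pdgfra as the reference gave the same split of 7 lower, 2 higher and 1 overlapping. Against the general fibroblast genes other than the 3 collagens, all 10 were lower, with a median of 95.1-fold. The direction flipped for Gsn (3.13-fold lower) and Cd34 (1.87-fold lower). Of the 2868 counts of this reference in sCAF, Pcolce held 1308 and Col6a1 572, while Dcn held 54. The collagen counts of sCAF numbered 392. The endothelial list summed to 838 CPM in sCAF and the epithelial list to 4694; their part in these ratios was not tested.

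Other lists of genes of resting fibroblasts were set beside the members. Of 26 further adventitial genes, 25 could be compared between pCAF and NMF, and 11 were called lower and 2 higher, with a median log2 ratio of -1.26 (genes at 0 in a library enter at their bound, here and below). Ly6a, a surface antigen of stem and stromal cells, was 1.06-fold lower (0.989 to 1.14), within counting error. Igfbp6, an insulin-like growth factor binding protein, fell 5.71-fold, Smpd3, a sphingomyelinase, fell 19.6-fold (10.3 to 43.1), and Has1, a hyaluronan synthase, rose 11.6-fold (8.18 to 16.8). Of 13 genes compared from a list for fibroblasts of the tissue parenchyma, 6 were called lower and 1 higher, with a median of -1.33. Mgp, matrix Gla protein, was 1.14-fold higher (1.01 to 1.28) and Sparcl1, a SPARC-like matrix protein, was 1.34-fold lower (1.23 to 1.48), and neither was called. Inmt, an indolamine N-methyltransferase, fell 109-fold (42.4 to 399.8) and the chemokine Ccl11 rose 3.33-fold (2.88 to 3.85). Both resting-fibroblast lists therefore held more genes called lower than higher, as the members did.

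The lists of general and activated fibroblast genes ran the other way. Of 16 general fibroblast genes 4 were called higher and 1 lower, with a median of 0.67. Col5a2, a fibrillar collagen chain, rose 17.4-fold (12.0 to 26.0), Col3a1 was 1.91-fold higher and Dcn, decorin, fell 2.31-fold. Of 18 activation genes compared, 15 were called higher and 0 lower, with a median of 5.00. Periostin (Postn) rose 2.79-fold (2.60 to 2.98), Timp1 rose 44.4-fold and the acute phase gene Saa3 rose 2125-fold (380 to 84047) from 1 count in NMF. Fap was 1.56-fold higher, which did not pass. Of 13 microfibril and elastic-fibre genes 4 were called higher and 2 lower, with a median of 0.68: Ltbp4 fell 3.69-fold (3.16 to 4.33), Fn1 was 1.27-fold higher and Ltbp2 rose 50.2-fold (16.2 to 252) from 3 counts in NMF. Nothing in these counts tests whether one list differs from another.

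**Figure D4:**
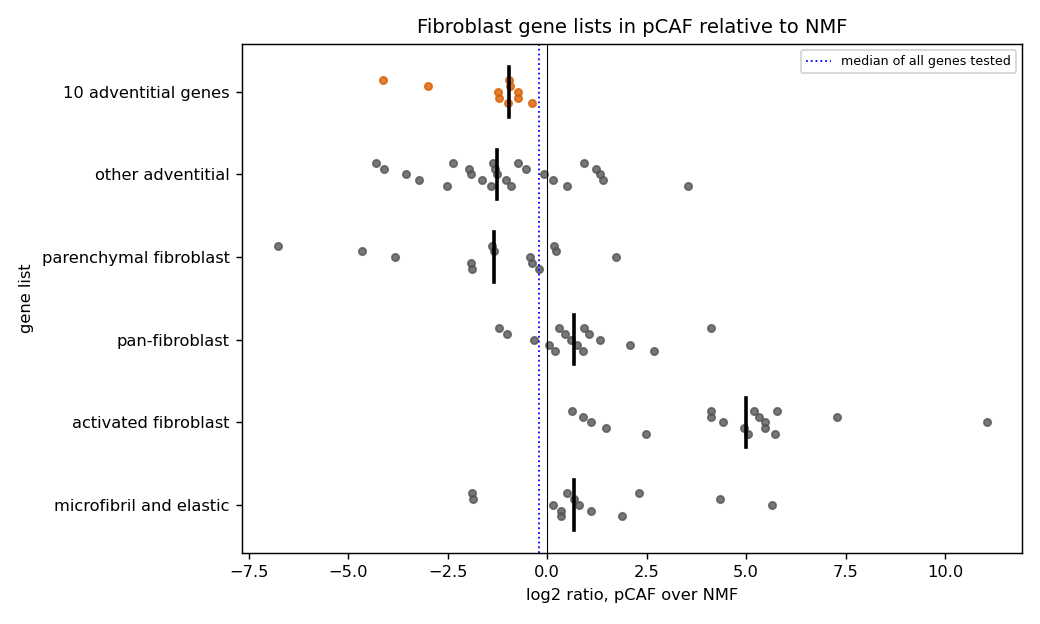
Log2 ratio of pCAF to NMF for each compared gene (points) of 6 lists, with the median of each list (black bar) and of all genes (dotted line). The members and the other adventitial and parenchymal lists have medians of -0.97, -1.26 and -1.33, and the activation list has a median of 5.00.

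Relatives of the members, by protein family, moved in both directions. Tnc, the tenascin associated with wounds and tumours, rose from 22 counts in NMF to 321 in pCAF, a 44.8-fold higher level (29.1 to 72.5), while its relative Tnxb was 1.90-fold lower. Efemp2, fibulin-4, rose 3.66-fold (3.05 to 4.39) where Efemp1 was 2.30-fold lower, and Fbln1 fell 3.64-fold. Among Wnt antagonists of the secreted frizzled family, Sfrp2 rose 3.02-fold (2.61 to 3.50), Sfrp1 was 2.16-fold higher (1.66 to 2.79) without passing, and Sfrp5 was at 0 in pCAF and at least 3.04-fold lower (exact limit 2.31). Of the gelsolin family, Capg rose 2.44-fold (2.08 to 2.86), and Flii and Svil were not called. Crispld1, Crispld2 and Glipr2 (relatives of Pi16), Clec11a (of Clec3b), Fbln2, Fbln7 and Hmcn1 (of Efemp1) and Podxl2 (of Cd34) were not called either. Cd93, a relative of Cd248, was 37.8-fold lower (6.65 to 1505) with 1 count in pCAF. The CD34 relative Podxl fell 47.5-fold (13.0 to 394) and the endosialin relative Thbd fell 7.32-fold (5.31 to 10.4); both are known endothelial genes, and the endothelial sums are given above.

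In the 4T1-GFP tumours the programme was sparse. In GFP- EpCAM- cells, the sort negative for both markers, Pi16 had 18 counts (14.0 CPM), Dpt 38 (29.5), Clec3b 37 (28.7), Tnxb 37 (28.7), Efemp1 11 (8.55), Dpep1 7 (5.44) and Sfrp4 1 (0.777). Cd34 and Cd248 stood out with 1023 counts (795 CPM) and 449 counts (349 CPM), and Gsn had 580 (451 CPM). In that library the endothelial list summed to 11862 CPM, the pericyte list to 4630, the adipocyte list to 2778 and the general fibroblast list to 8386. All 15 endothelial and all 10 pericyte genes were detected there, and their part in the Cd34 and Cd248 levels was not tested. Per 1000 collagen counts, Pi16 was at 3.99 and Dpt at 8.42, against 227 and 148 in NMF, while Cd34 was at 227 and Cd248 at 99.5. Those values cross the 2 tables, which were made and scaled separately, so no ratio is given.

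Against GFP- EpCAM+, 7 members could be compared in the GFP- EpCAM- sort and 5 were called higher, while 12.7% of 9518 genes were called higher and 7.33% lower. Cd248 was 285-fold higher (78.4 to 2361) and Cd34 72.2-fold (45.4 to 122). Dpt was 16.1-fold higher (5.10 to 81.4), and Clec3b and Tnxb, at 0 in GFP- EpCAM+, were at least 15.7-fold higher (exact limit 12.1). Pi16 was 5.71-fold higher (1.88 to 23.2) and was not called. Against GFP+ EpCAM-, 5 of 7 were called higher, where 14.1% of 9551 genes were called higher and 5.55% lower. Cd34 was 236-fold (114 to 589), Cd248 145-fold (61.8 to 449) and Tnxb 15.0-fold (5.37 to 57.8) higher. Dpt was at least 20.5-fold (exact limit 15.9) and Clec3b at least 19.9-fold higher (exact limit 15.4), and Pi16 was 2.91-fold higher (1.27 to 7.06) without passing. Both comparisons share the GFP- EpCAM- library. Apart from Gsn, the members compared had at most 18 counts in the other sort, below the 20-count limit. They entered through their counts in GFP- EpCAM-, so these calls could hardly go the other way and are a description only. Efemp1, Dpep1 and Sfrp4 had too few counts to be compared.

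Gsn was the exception in the second table, with 450.6 CPM in GFP- EpCAM-, 624 in GFP- EpCAM+, 398 in GFP+ EpCAM- and 537 in GFP+ EpCAM+. It was 1.38-fold lower in GFP- EpCAM- than in GFP- EpCAM+ (1.25 to 1.53), inside 2-fold. In the 3 sorts other than GFP- EpCAM- it made up 97.0% to 98.5% of the members' counts, against 26.4% in GFP- EpCAM-. The remaining members in those sorts ran from 0 to 18 counts each. Between GFP+ EpCAM- and GFP+ EpCAM+, 1 member had enough counts, Gsn, and it was not called at 1.35-fold lower (1.23 to 1.47), with 0.396% of 9100 genes called higher and 0.736% lower. Between GFP- EpCAM+ and GFP+ EpCAM+, Gsn (1.16-fold higher, 1.07 to 1.26) and Cd34 (3.42-fold, 1.41 to 9.08) were compared and not called, where 4.18% of 9241 genes were called higher and 0.216% lower.

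The members' mean profile over the 7 libraries, as log2(CPM + 1) centred within each table, was nearest in root mean square difference to Emilin2 (0.86), an elastic-fibre-associated glycoprotein, and Ctsk (0.87), the collagen-degrading protease cathepsin K. Hexa (0.94), a lysosomal hexosaminidase subunit, Arhgap29 (0.95) and Fbn1 (0.96), fibrillin-1, followed among 5933 non-member genes compared. Emilin2, also on the list of further adventitial genes, was lower in pCAF than in NMF (294 and 787 CPM), as was Hexa (212 and 313). Ctsk (434 and 441) and Arhgap29 (115 and 106) stood near the same level in both. Fbn1 was higher in pCAF (1900 and 879), so nearness in this profile does not require the members' order of NMF over pCAF. The 5933 genes were those listed in both tables with at least 100 counts in each. Members were not held to that filter, and Sfrp4, with 1 count in GFP- EpCAM- and 0 in the other sorts, would not pass it. Non-member genes as sparse in the second table were therefore left out. The members themselves, which make up that mean, ranged from 0.23 for Efemp1 to 1.34 for Cd248, 1.58 for Cd34 and 1.93 for Gsn. The median of the 5933 non-member genes was 3.04. Of these 5933 genes, 183 were nearer than Gsn, the farthest member. The 3′ ends of Dpt, Cd34, Tnxb and Dpep1 overlap another annotated gene in GRCm38 (Dpep1 on its own strand by Gm20388), and the strand setting of the authors' counting was not stated. Of the overlapping genes, Gm16897, opposite Cd34, was listed in the first table with 1 count, and the others were not listed, so the 4 members are reported as uncertain to that extent.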

How the data were processed

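The authors deposited 2 tables of raw read counts per gene, from 3′ end mRNA libraries. Per the submitters' processing notes, bcl2fastq, cutadapt, STAR, HTSeq, DESeq2 and mm10 were used, with no roles or versions. The sources used here do not state whether molecular identifiers were collapsed or strand was used. Names that a spreadsheet had turned into dates were dropped, 27 in the first table and 21 in the second. Library sizes were scaled within each table by TMM (edgeR 4.0.16, R 4.3.3). With 1 library per group, a ratio of scaled counts carries an exact 95% Clopper-Pearson interval from the conditional binomial (scipy 1.17.1), and a level an exact Poisson interval. A ratio needed 20 counts over the compared libraries. A library at 0 was set to 3 counts, and the ratio is then a bound. A call needed the whole interval beyond 2-fold. Totals per library ran from 436051 to 2590144 counts. Members are given in full. Of 5 fibroblast lists, the text names the 2 genes with most counts and those with the largest and smallest pCAF to NMF ratio, plus family relatives and the 5 nearest profiles. The members, lists and comparisons were chosen with earlier results of these data known. The alternatives tried were size factors from DESeq2 1.42.0, unadjusted total counts, other count filters, a 4-fold rule, scaling without ribosomal protein genes, thinning, and other fibroblast references.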

Additional observations from a re-analysis of the deposited data

How the results depend on the processing

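No paired analysis was possible because each group is 1 library. Of 104 counts of members under an alternative, 100 stayed within 1.5 times the reported count. Many of these were 0 under every setting, such as members higher in pCAF than in NMF, so that share says little about stability. Members called lower than in NMF ran from 2 to 6 in pCAF (reported 3) and were 10 throughout in sCAF. Those called higher ran from 9 to 10 in pCAF against sCAF. In GFP- EpCAM- they ran from 2 to 6 against GFP- EpCAM+ and from 2 to 7 against GFP+ EpCAM- (reported 5 in each). The 4 that moved were as follows. With total counts as the scale, 6 members in place of 3 were called lower in pCAF than in NMF. With at least 100 counts required, 2 members in place of 5 were called higher in GFP- EpCAM- than in GFP- EpCAM+, and 2 in place of 5 than in GFP+ EpCAM-, since fewer genes were compared. With Dcn, Lum and Pdgfra as the reference, 3 members in place of 10 were lower in pCAF than in NMF. Dcn, most of that reference, was itself 2.31-fold lower in pCAF, and its part in this shift was not tested. Of 198 member ratios, 173 moved by less than their counting interval, and no ratio changed sign among those called. Of 100 counts over all genes, 29 moved by over 1.5 times. The ranges over alternatives for genes called higher and lower were 232 to 836 and 173 to 839 in pCAF against NMF (reported 616 and 643), 566 to 1577 and 763 to 2305 in sCAF against NMF (1561 and 1695), and 419 to 1673 and 242 to 1247 in pCAF against sCAF (1023 and 1001). They were 632 to 1462 and 214 to 739 in GFP- EpCAM- against GFP- EpCAM+ (1205 and 698), and 635 to 1798 and 97 to 644 against GFP+ EpCAM- (1346 and 530). For GFP+ EpCAM- against GFP+ EpCAM+ they were 8 to 41 and 20 to 77 (36 and 67), and for GFP- EpCAM+ against GFP+ EpCAM+ 116 to 600 and 1 to 32 (386 and 20). Depth limits the members near 0 counts: in pCAF, 3 counts correspond to 7.48 CPM, and in the other 6 libraries to 1.13 to 2.44 CPM.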

Other observations

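Ly6a, counted with the further adventitial genes, stood at 2748 CPM in NMF, 2590.1 in pCAF and 180 in sCAF, and at 1337 CPM in GFP- EpCAM-, 2952 in GFP- EpCAM+, 1600.3 in GFP+ EpCAM- and 3081 in GFP+ EpCAM+. The sorts of GFP+ injected cells thus carried Ly6a, as they carried Gsn, while Dpt, Clec3b, Efemp1, Sfrp4 and Dpep1 were at 0 in both. Of the 26 further adventitial genes, 15 could be compared between GFP- EpCAM- and GFP- EpCAM+, with 4 called higher and 5 lower, and 17 between GFP- EpCAM- and GFP+ EpCAM-, with 7 higher and 4 lower.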
